A study of Homo sapiens with 26 samples.

Results

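The genes described here act in glycolysis, in the handling of pyruvate and lactate, and in the response to low oxygen. They were measured in NCCIT cells, a human embryonal carcinoma line derived from a germ cell tumour. The list held 38 symbols, and each gene was represented by the brightest array row that carried its symbol and no other, which gave 34 of the 38 among 18417 genes in all. CA9, SLC16A1 and SLC16A3 were not analysed here because no row carried exactly that symbol, and neither was PGAM1, which shared each of its 5 rows with PGAM4. Transcript levels came from Affymetrix Human Gene 1.0 ST arrays, 26 in all, and are given as log2 values with the values of both duplicates separated by "and". A level on such an array depends on the probes as well as on the transcript, so levels are compared between groups for 1 gene and not between genes.

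All groups were NCCIT cells transfected with siRNA in serum-containing McCoy's medium, and there were 13 groups of 2 arrays. In 4 groups the siRNA was directed at 1 transcript (siDNMT1, siDNMT3A, siDNMT3B and siDNMT3L). In 3 groups DNMT1 was targeted together with others (siD1+3A and siD1+3B as pairs, siD1+3A+3B as a triple). In 4 groups members of the DNMT3 family were targeted together, as the pairs 3A+3B, 3A+3L and 3B+3L or as the triple 3A+3B+3L. The last 2 groups, siNTC-2 and siNTC-1, received control siRNA. DNMT1 keeps up DNA methylation through cell division, DNMT3A and DNMT3B methylate new sites, and DNMT3L assists them without an enzymatic activity of its own. The labels give no time after transfection and no siRNA dose, and they do not say whether duplicates were separate cultures, so the p-values reflect only how far duplicates differ, and that spread may be technical. The cells come from 1 line, and transient depletion lowers a transcript without removing it.

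Glycolysis splits glucose into pyruvate. Lactate dehydrogenase turns pyruvate into lactate, and the pyruvate dehydrogenase kinases hold it back from the mitochondria. Many of these genes are targets of HIF-1, whose HIF1A subunit is hydroxylated by the prolyl hydroxylases EGLN1 and EGLN3 and then degraded while oxygen is plentiful. HIF-1 binds DNA at sites with the core letters ACGTG or GCGTG, and HIF targets also include genes of blood vessel growth, mitophagy and collagen modification. Cultured pluripotent cells are known for a high rate of glycolysis. In bulk RNA of this kind, fewer cells that express a gene and less RNA per cell cannot be told apart.

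The control groups differed from each other over much of the transcriptome, which bears on every comparison of a depletion with the controls. Of all genes, 24.2% were higher and 20.5% lower in siNTC-2 than in siNTC-1, and the first principal component of the 26 arrays (49.53% of the variance) set 3 depletions (siDNMT1, siDNMT3B and siDNMT3L) near siNTC-1 and the remaining 8 near siNTC-2. No label ties a depletion to either control group. A member was therefore called higher or lower in a depletion if limma's moderated test passed an adjusted p of 0.05 in the same direction against siNTC-2 and against siNTC-1 separately, and all 11 depletions share these control arrays. Each fit was repeated without each array in turn. The words rose and fell are used below for calls that held in every one of these repeats, and other calls are given as calls with all arrays. The targeted transcripts were called lower against both controls in every group that received their siRNA except DNMT3B in 3A+3B+3L, which was at 99.4% of siNTC-2 and 80.3% of siNTC-1. In siDNMT3L, DNMT3L was at 69.9% of siNTC-2 and 70.6% of siNTC-1, a call that was lost in a repeat, as were those of DNMT3L in 3B+3L and 3A+3B+3L and of DNMT3B in siD1+3A+3B. Pluripotency genes averaged 11.26 to 11.44 on each array over the 7 of 10 listed genes that were found. Markers of differentiated lineages averaged 4.93 to 5.08 over 10 genes. Single genes of these lists were called all the same, where 4.22% of all pairs of a gene and a depletion were called higher and 3.68% lower. DPPA4 was called higher in 9 of the 11 depletions, and L1TD1 rose in siDNMT1, siDNMT3B and siDNMT3L. LIN28A and PODXL fell in siDNMT3B, and HAND1 fell in siDNMT1, siD1+3B and siDNMT3B.

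The sequence upstream of 5 members that carry the main results is shown first. Each line gives the 250 bases before the outermost transcription start that RefSeq annotates for the gene (GRCh38.p14), 5′ to 3′ on the strand of the gene, with every ACGTG or GCGTG in capitals, read on either strand, where overlapping matches run together. AK4, LDHA, HIF1A and P4HA1 were among the members called higher most often or by most, and BSG had the largest fall. For AK4 this rests on the brighter of its 2 rows. Where the probes of that row lie was not checked, so the AK4 window may not belong to the transcript measured. The windows lie at chr1:65147302-65147551 (plus strand) for AK4, chr11:18394313-18394562 (plus strand) for LDHA, chr14:61695263-61695512 (plus strand) for HIF1A, chr10:73096867-73097116 (minus strand) for P4HA1 and chr19:571033-571282 (plus strand) for BSG.
AK4: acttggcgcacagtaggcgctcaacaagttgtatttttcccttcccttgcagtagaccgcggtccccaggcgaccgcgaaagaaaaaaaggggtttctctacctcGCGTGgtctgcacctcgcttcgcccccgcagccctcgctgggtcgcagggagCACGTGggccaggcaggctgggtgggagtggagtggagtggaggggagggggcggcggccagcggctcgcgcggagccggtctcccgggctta
LDHA: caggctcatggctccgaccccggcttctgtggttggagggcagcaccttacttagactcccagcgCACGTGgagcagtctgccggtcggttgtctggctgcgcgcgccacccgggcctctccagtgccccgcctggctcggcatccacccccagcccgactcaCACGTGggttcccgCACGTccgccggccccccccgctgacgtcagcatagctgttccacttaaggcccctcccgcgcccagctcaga
HIF1A: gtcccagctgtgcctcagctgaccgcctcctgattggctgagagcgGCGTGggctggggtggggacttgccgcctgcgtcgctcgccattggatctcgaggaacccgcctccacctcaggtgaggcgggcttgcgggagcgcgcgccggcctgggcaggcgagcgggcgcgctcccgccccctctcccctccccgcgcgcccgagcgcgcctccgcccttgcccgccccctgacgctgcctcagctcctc
P4HA1: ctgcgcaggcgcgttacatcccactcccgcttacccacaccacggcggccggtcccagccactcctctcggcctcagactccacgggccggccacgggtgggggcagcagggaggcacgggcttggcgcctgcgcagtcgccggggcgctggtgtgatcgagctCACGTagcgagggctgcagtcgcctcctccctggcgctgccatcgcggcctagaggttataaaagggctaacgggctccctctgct
BSG: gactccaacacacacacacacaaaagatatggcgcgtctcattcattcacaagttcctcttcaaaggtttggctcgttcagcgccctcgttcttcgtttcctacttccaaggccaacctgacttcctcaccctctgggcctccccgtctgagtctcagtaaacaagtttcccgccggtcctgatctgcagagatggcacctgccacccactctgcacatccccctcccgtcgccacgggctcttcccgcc
These windows held 3 matches for AK4, 5 for LDHA, 1 for HIF1A, 1 for P4HA1 and 0 for BSG, whose second annotated start has 6 upstream. They held 23, 22, 29, 25 and 13 CpG sites in the same order. Over all 35116 windows of this length in the table, 43.2% held at least 1 match and the median number of CpG sites was 11. Of the 30 members with a window, 20 (66.7%) held a match, and their median was 24.5 CpG sites. A match describes letters only and says nothing of binding in these cells.

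Over the 11 depletions, 22 members were called in at least 1 and 12 in none. The 22 are 64.7% of the members, where 31.6% of all genes and 45.3% of the genes in the upper 60% of mean signal were called in at least 1. There were 86 calls, of which 58 were upward and 28 downward. That is 15.5% and 7.49% of all pairs of a member and a depletion, where the shares were 4.22% and 3.68% over all genes and 6.42% and 5.57% over the genes of higher signal. Of the 86 calls, 37 (26 rises and 11 falls in 14 members) held in every repeat that left out 1 array. The other 49 calls were lost in at least 1 repeat. The heat map of members by group shows that variation was concentrated in few genes: 7 members (20.6%) had group means that spanned at least 1 log2 unit, against 5.6% of all genes, while the median span was 0.45 for the members and 0.41 for all genes. Duplicates differed by a median of 0.05, with a widest gap of 0.31 over 442 gaps.

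**Figure D1:**
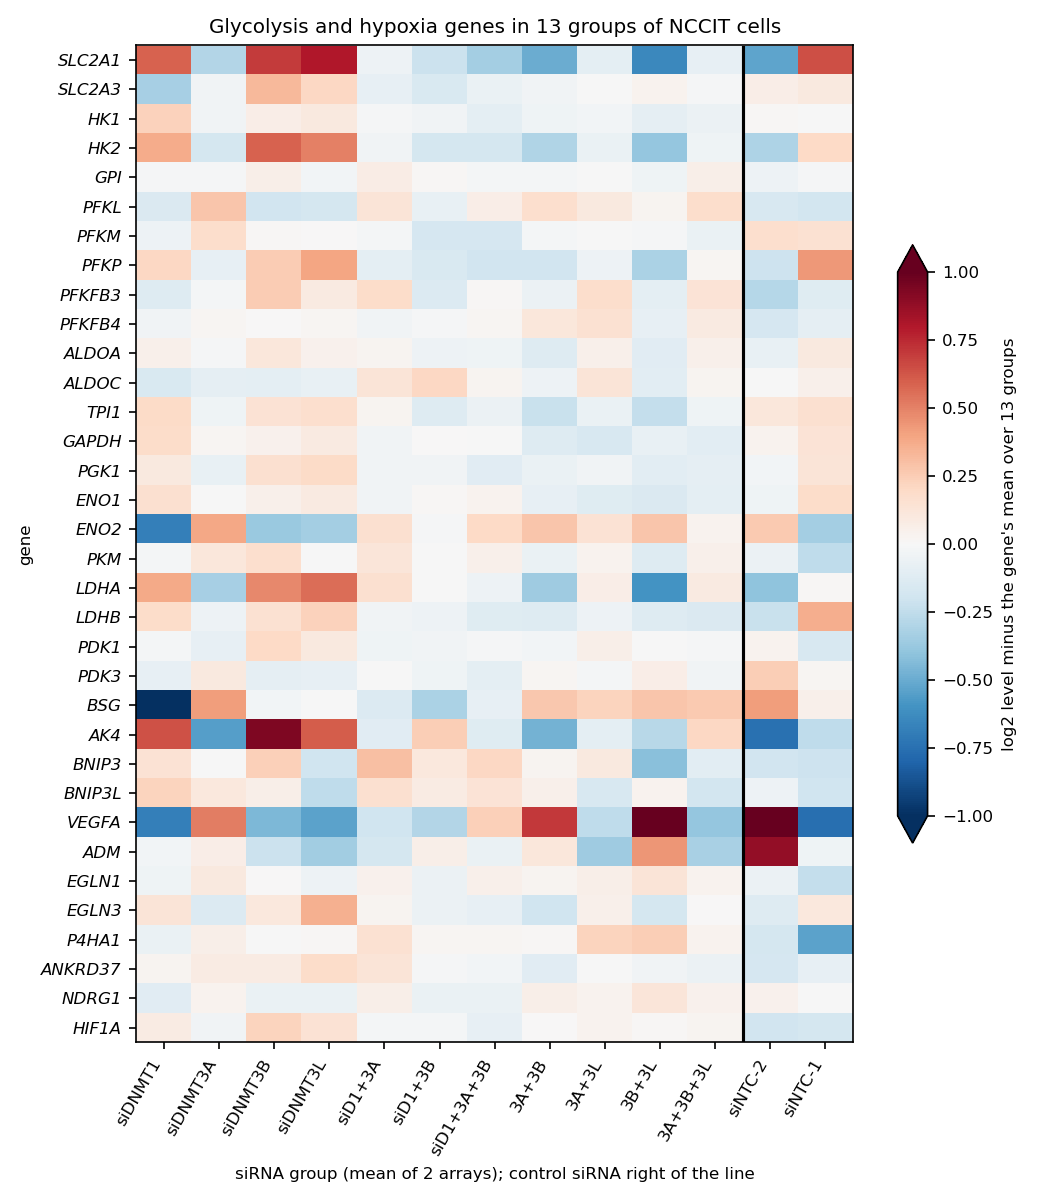
Mean log2 level of 34 members in 13 groups, minus the gene's mean over the groups, with 11 depletions left of the line and siNTC-2 and siNTC-1 right of it (colours are clipped at ±1). VEGFA, SLC2A1, LDHA and ADM differ between the control columns, AK4 is high in siDNMT3B, and BSG is low in siDNMT1.

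The siDNMT3B group had 10 members called higher and 0 called lower against both controls, where 5.69% of all genes were called higher and 6.39% lower. Only 1 member was lower against both controls at an unadjusted p under 0.05. Among the 11050 genes in the upper 60% of mean signal, where 33 of the 34 members lie, these shares were 8.36% and 9.33%. The members' median difference was 0.16 against siNTC-2 and 0.06 against siNTC-1, beside -0.0012 and -0.02 over all genes. Of the 10, 7 rose (SLC2A3, HK2, PFKFB3, LDHA, AK4, BNIP3 and HIF1A). The calls of PKM, PDK1 and P4HA1 rested on single arrays: without siNTC-2 replicate 1 the difference of PKM from siNTC-2 was 0.17 (adjusted p = 0.052, limma) and that of P4HA1 was 0.16 (adjusted p = 0.149), and without siNTC-2 replicate 2 that of PDK1 was 0.13 (adjusted p = 0.181). P4HA1 was also lost without siNTC-2 replicate 2 (0.19, adjusted p = 0.0923) or siDNMT3B replicate 2 (0.10, adjusted p = 0.342), and PDK1 without siDNMT3B replicate 1 (0.19, adjusted p = 0.0519) or siDNMT3B replicate 2 (0.14, adjusted p = 0.145).

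In siDNMT1, 6 members were called higher and 5 lower, where 4.02% and 5.26% of all genes were. Among the genes in the upper 60% of mean signal the shares were 5.54% and 8.02%. LDHA, AK4, BNIP3, BNIP3L and HIF1A rose, and SLC2A3, ENO2 and BSG fell. HK1, PFKM and ALDOC were called with all arrays but not in each repeat. HK1 was lost without siDNMT1 replicate 2 (difference from siNTC-1 of 0.19, adjusted p = 0.0543, limma). PFKM was lost without siNTC-1 replicate 2 (-0.17, adjusted p = 0.0957) or siDNMT1 replicate 1 (-0.18, adjusted p = 0.0986), and ALDOC without any 1 of 4 arrays, for example siNTC-1 replicate 2 (-0.17, adjusted p = 0.0855). In siDNMT3L, 6 members were called higher and 1 lower, where 4.4% and 5.45% of all genes were, and LDHA, AK4 and HIF1A rose. Here the shares among the genes of higher signal were 6.56% and 8.38%. HK2, P4HA1, ANKRD37 and the downward call of ADM were lost in a repeat; without siDNMT3L replicate 2, for example, ADM differed from siNTC-1 by -0.24 (adjusted p = 0.137) and ANKRD37 by 0.18 (adjusted p = 0.273).

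**Figure D2:**
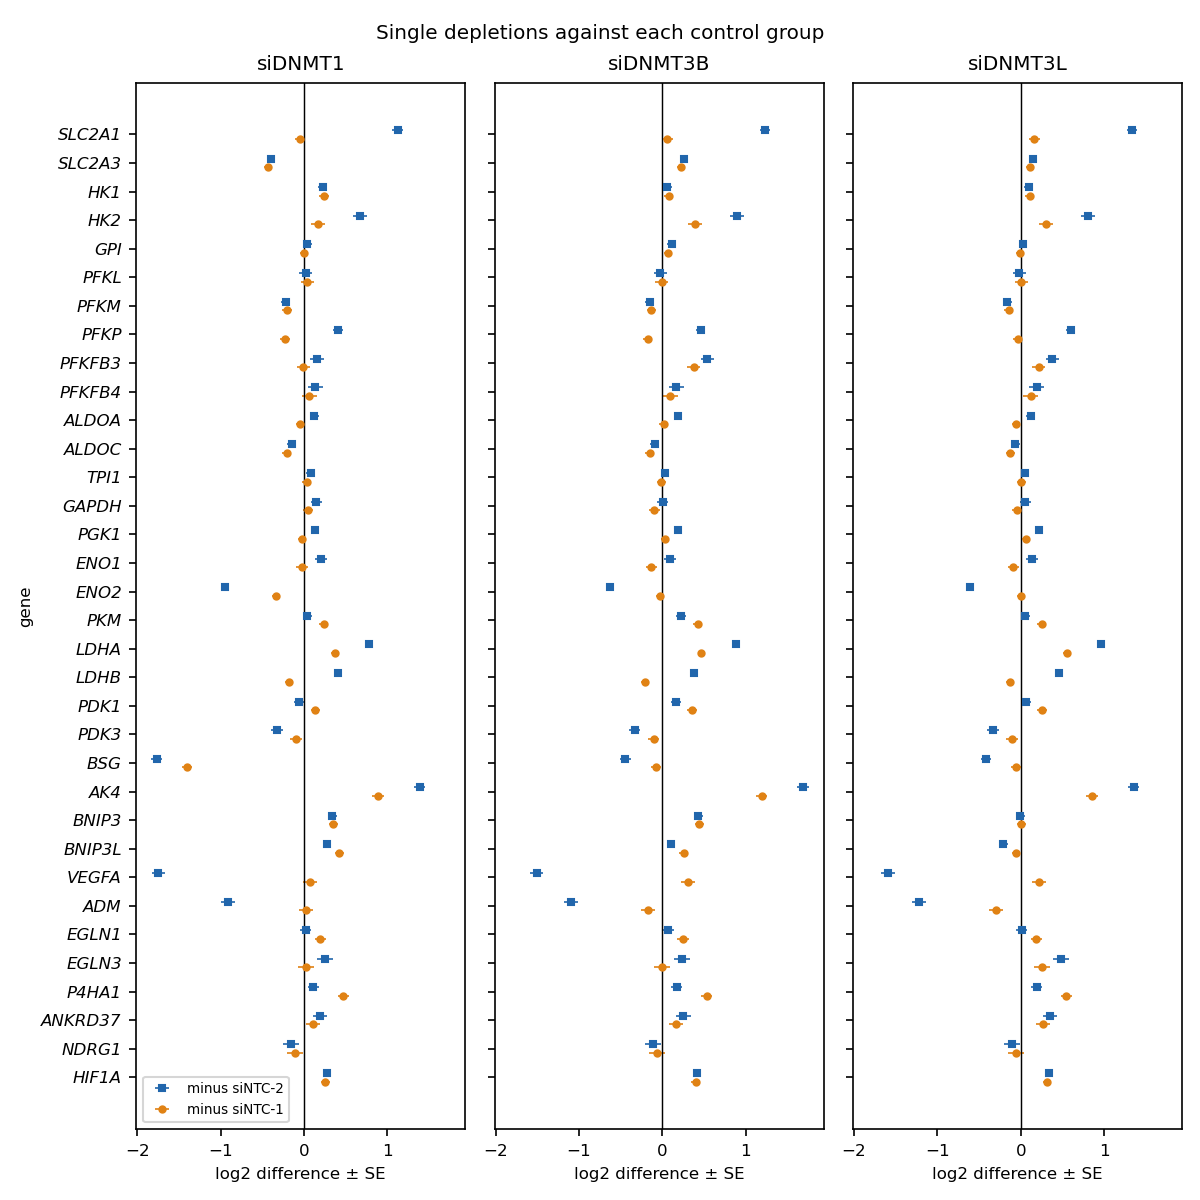
Log2 differences (± SE of the fit) of 34 members in siDNMT1, siDNMT3B and siDNMT3L from siNTC-2 (squares) and from siNTC-1 (circles). AK4 and HIF1A lie right of 0 against both controls in all 3 groups, and VEGFA and SLC2A1 depend on the control.

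The siDNMT3A group had 5 members called higher and 1 lower, where 4.38% and 2.42% of all genes were, and only the rise of PFKL held in every repeat. In siD1+3A the counts were 8 and 3, where 5.1% and 3.05% of all genes were called, and BNIP3 and P4HA1 rose. In siD1+3B they were 5 and 4, where 4.84% and 3.84% were called, with rises of AK4 and BNIP3 and falls of SLC2A3, PFKM, TPI1 and BSG. In siD1+3A+3B they were 2 and 2, where 2.96% and 3.05% were called, and BNIP3 rose and PFKM fell. The 3A+3B group had 3 and 2, where 2.95% and 2.04% were called, and TPI1 fell. The 3A+3L group had 6 and 4, where 4.32% and 3.29% were called, and BNIP3 and P4HA1 rose. The 3B+3L group had 2 and 3, where 3.58% and 2.28% were called, with a rise of P4HA1 and a fall of TPI1. The 3A+3B+3L group had 5 and 3, where 4.2% and 3.41% were called, with rises of PFKL and AK4 and a fall of PFKM. Among the genes in the upper 60% of mean signal, the shares in these groups were 4.52% to 7.76% upward and 3.11% to 5.99% downward. In siD1+3A+3B they were 4.52% and 4.84%. Several of the members' counts changed by more than 1.5 times when 1 array was left out. Without siNTC-2 replicate 2 they dropped to 2 in siD1+3A+3B and 3A+3B, to 4 in 3A+3L and to 3 in 3B+3L. The siDNMT3A count dropped to 2 without siNTC-2 replicate 1. That of siD1+3A dropped to 3 without siD1+3A replicate 2, and that of 3A+3B+3L to 4 without 3A+3B+3L replicate 1.

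Glucose enters cells through SLC2A1 and SLC2A3, the transporters GLUT1 and GLUT3. SLC2A3 reached 12.47 and 12.48 in siDNMT3B and only 11.77 and 11.86 in siDNMT1, against 12.25 and 12.18 in siNTC-2 and 12.27 and 12.23 in siNTC-1. Both siDNMT3B arrays lay above the 4 control arrays and both siDNMT1 arrays below them. The rise in siDNMT3B was 0.26 ± 0.05 (SE) against siNTC-2 (adjusted p = 0.000189, limma) and 0.23 ± 0.05 against siNTC-1 (adjusted p = 0.00192). The fall in siDNMT1 was -0.40 ± 0.05 against siNTC-2 (adjusted p = 1.6e-06, limma) and -0.44 ± 0.05 against siNTC-1 (adjusted p = 3.9e-06), and siD1+3B, at 12.02 and 11.98, fell as well. SLC2A3 in siDNMT3B differed from siDNMT1 by 0.66 (adjusted p = 4.7e-08), a 1.58-fold difference. SLC2A1 moved with the controls instead. It read 11.01 and 11.06 in siDNMT1, 11.15 and 11.14 in siDNMT3B and 11.29 and 11.20 in siDNMT3L, against 9.85 and 9.98 in siNTC-2 and 11.08 and 11.09 in siNTC-1. The other 8 depletions had means from 9.80 in 3B+3L to 10.39 in siD1+3A. These 8 depletions lay near or above siNTC-2 and below siNTC-1. The siDNMT1 mean lay between the controls, and the siDNMT3B and siDNMT3L means lay above both without passing against siNTC-1. SLC2A1 was thus called in none of the 11.

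Hexokinases trap glucose as its phosphate. HK2, the inducible form, read 8.86 and 8.97 in siDNMT3B, against 8.02 and 8.01 in siNTC-2 and 8.45 and 8.60 in siNTC-1. All siDNMT3B arrays lay above all control arrays, and the rise was 0.90 ± 0.08 against siNTC-2 (adjusted p = 7.1e-08, limma) and 0.39 ± 0.08 against siNTC-1 (adjusted p = 0.00203). HK1, the form found in most tissues, had depletion means from 8.67 in siD1+3A+3B to 9.00 in siDNMT1, against 8.75 and 8.80 in siNTC-2 and 8.75 and 8.77 in siNTC-1. GPI, which converts the glucose phosphate into its fructose form, varied least of the members: its group means spanned 0.13, and it was called in no depletion.

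Phosphofructokinase commits sugar to glycolysis, and its 3 forms did not move together. PFKL, the liver form, rose to 9.55 and 9.38 in siDNMT3A and 9.35 and 9.38 in 3A+3B+3L, against 9.02 and 9.05 in siNTC-2 and 8.95 and 9.06 in siNTC-1. In siDNMT3A the rise was 0.43 ± 0.08 against siNTC-2 (adjusted p = 0.00086, limma) and 0.46 ± 0.08 against siNTC-1 (adjusted p = 0.00011). PFKL was called higher in all 4 groups that received DNMT3A siRNA without DNMT1 siRNA, and in siD1+3A. PFKM, the muscle form, read 8.56 and 8.49 in siD1+3B and 8.56 and 8.50 in siD1+3A+3B, against 8.85 and 8.86 in siNTC-2 and 8.81 and 8.88 in siNTC-1, with no overlap. It was called lower in 7 depletions and fell in 3 of them (siD1+3B, siD1+3A+3B and 3A+3B+3L). PFKP, the platelet form, lay below siNTC-1 in all 11 depletions, by 0.04 to 0.75 on the log2 scale, and above siNTC-2 in 10 of 11, and was called in none. PFKFB3 makes the activator of phosphofructokinase and read 8.28 and 8.35 in siDNMT3B, against 7.83 and 7.72 in siNTC-2 and 8.02 and 7.86 in siNTC-1. That rise was 0.54 ± 0.08 against siNTC-2 (adjusted p = 2.1e-05) and 0.37 ± 0.08 against siNTC-1 (adjusted p = 0.00205). Its relative PFKFB4 was called in 3A+3L only with all arrays.

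TPI1, which interconverts the triose phosphates, was called lower in 7 depletions and fell in 3 of them. It read 12.44 and 12.37 in 3B+3L, 12.40 and 12.45 in 3A+3B and 12.56 and 12.49 in siD1+3B, against 12.75 and 12.77 in siNTC-2 and 12.75 and 12.87 in siNTC-1, and these falls held in every repeat. All 6 of those arrays lay below the 4 control arrays. In 3B+3L the fall was -0.36 ± 0.05 against siNTC-2 (adjusted p = 0.00036, limma) and -0.40 ± 0.05 against siNTC-1 (adjusted p = 5.5e-06). A second row for TPI1 gave -0.43 and -0.58 in that order. Of the aldolases, which cleave the sugar, ALDOA had depletion means from 8.82 to 9.06, against 8.81 and 8.94 in siNTC-2 and 9.08 and 9.02 in siNTC-1, and ALDOC from 9.68 in siDNMT1 to 10.04 in siD1+3B, against 9.79 and 9.86 in siNTC-2 and 9.85 and 9.93 in siNTC-1. ALDOA was called in none, and the calls of ALDOC were lost in a repeat. GAPDH, which oxidises the triose phosphate, was called lower in 3A+3L with all arrays only. PGK1, which carries out the first ATP-forming step, had no call.

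The enolases parted. ENO2, the neuronal form, read 9.34 and 9.38 in siDNMT1, against 10.27 and 10.34 in siNTC-2 and 9.68 and 9.71 in siNTC-1. Both siDNMT1 arrays were the lowest of the 26, and the fall was -0.95 ± 0.05 against siNTC-2 (adjusted p = 2.8e-11, limma) and -0.34 ± 0.05 against siNTC-1 (adjusted p = 4.8e-05). The general form ENO1 had depletion means from 13.51 to 13.81, against 13.58 and 13.64 in siNTC-2 and 13.75 and 13.92 in siNTC-1, and was called in none. PKM, the pyruvate kinase, was called higher in siDNMT3A, siDNMT3B and siD1+3A, each lost in a repeat.

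LDHA makes lactate from pyruvate, and its upstream window printed above held 5 motif matches. It read 12.66 and 12.74 in siDNMT1, 12.80 and 12.80 in siDNMT3B and 12.88 and 12.88 in siDNMT3L, against 11.91 and 11.93 in siNTC-2 and 12.32 and 12.35 in siNTC-1. All 6 of these arrays lay above every control array. The rise in siDNMT3L was 0.96 ± 0.04 against siNTC-2 (adjusted p = 1.0e-11, limma) and 0.55 ± 0.04 against siNTC-1 (adjusted p = 1.0e-07). In siDNMT3B it was 0.88 ± 0.04 against siNTC-2 and 0.47 ± 0.04 against siNTC-1, and in siDNMT1 0.78 ± 0.04 and 0.37 ± 0.04. LDHB, the form that favours pyruvate, had depletion means from 13.00 to 13.38, against 12.93 and 12.93 in siNTC-2 and 13.51 and 13.51 in siNTC-1. Every depletion mean of LDHB lay between the controls, so it was called in none. Of the pyruvate dehydrogenase kinases, PDK1 was called in siDNMT3B only with all arrays and PDK3 in no depletion; PDK3 was below siNTC-2 in all 11 by 0.15 to 0.35.

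BSG encodes basigin, the chaperone that brings lactate transporters to the cell surface, and had the largest fall of any member. It read 10.04 and 10.07 in siDNMT1, against 11.82 and 11.83 in siNTC-2 and 11.47 and 11.45 in siNTC-1. Both siDNMT1 arrays lay below all other arrays, and the level was 29.4% of siNTC-2 (-1.77 ± 0.06, adjusted p = 3.1e-13, limma) and 37.9% of siNTC-1 (-1.40 ± 0.06, adjusted p = 7.3e-11). DNMT1 itself was at 41.2% and 37.4% in the same arrays. In the groups that combined DNMT1 siRNA with others, BSG read 11.09 and 11.09 in siD1+3B, 11.28 and 11.26 in siD1+3A and 11.29 and 11.37 in siD1+3A+3B. Only siD1+3B fell in every repeat, by -0.74 against siNTC-2 and -0.37 against siNTC-1. DNMT1 was at 49.9% of siNTC-2 and 45.3% of siNTC-1 in siD1+3B, 55.9% and 50.8% in siD1+3A, and 59.5% and 54.1% in siD1+3A+3B. The call in siD1+3A was lost in a repeat, siD1+3A+3B was not called, and no depletion without DNMT1 siRNA had BSG called lower.

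**Figure D3:**
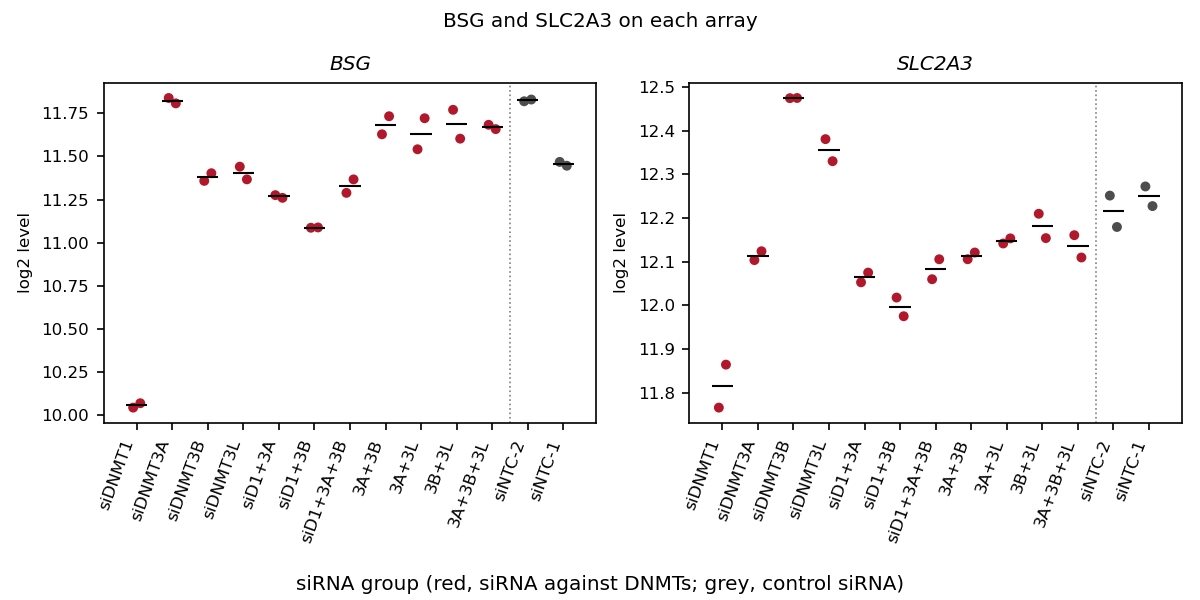
Log2 level of BSG and SLC2A3 on each of 26 arrays (points) with group means (lines); 11 depletions in red, siNTC-2 and siNTC-1 in grey at the right. BSG in siDNMT1, at 10.04 and 10.07, lies below every other array, and SLC2A3 is highest in siDNMT3B and lowest in siDNMT1.

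AK4, a mitochondrial adenylate kinase and HIF target, had the largest rise of the members called against both controls. It read 11.03 and 11.09 in siDNMT3B, 10.74 and 10.78 in siDNMT1, 10.75 and 10.70 in siDNMT3L, 10.37 and 10.36 in siD1+3B and 10.33 and 10.34 in 3A+3B+3L, against 9.34 and 9.41 in siNTC-2 and 9.76 and 9.98 in siNTC-1. All 10 of these arrays lay above the 4 control arrays. In siDNMT3B the rise was 1.69 ± 0.07 against siNTC-2 (3.22-fold, adjusted p = 1.6e-12, limma) and 1.19 ± 0.07 against siNTC-1 (2.28-fold, adjusted p = 9.0e-10). The smallest of the 5 rises, in 3A+3B+3L, was 0.96 against siNTC-2 and 0.46 against siNTC-1. The remaining depletions were not called; siDNMT3A, at 9.58 and 9.57, lay above siNTC-2 and below siNTC-1. A second, dimmer row for AK4 gave smaller rises, with 0.89 against siNTC-2 and 0.76 against siNTC-1 in siDNMT3B. It gave no call in siDNMT3L (0.35 against siNTC-1, adjusted p = 0.0993, limma) or in 3A+3B+3L (0.18 against siNTC-2 and 0.05 against siNTC-1). In that row AK4 also did not differ between the controls at the threshold. The brighter row has a number near those of members on chromosome 12, although AK4 lies on chromosome 1. Where the probes of the brighter row lie was not checked.

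BNIP3 and BNIP3L direct mitophagy, the removal of mitochondria. BNIP3 read 11.53 and 11.56 in siD1+3A and 11.50 and 11.47 in siDNMT3B, against 11.07 and 11.04 in siNTC-2 and 11.04 and 11.04 in siNTC-1, and the controls were alike for this gene (difference of 0.01, adjusted p = 0.884). It was called higher in 8 depletions and rose in 6 of them (siDNMT1, siD1+3A, siD1+3B, siD1+3A+3B, siDNMT3B and 3A+3L). In siD1+3A the rise was 0.49 ± 0.05 against siNTC-2 (adjusted p = 2.3e-06, limma) and 0.50 ± 0.05 against siNTC-1 (adjusted p = 7.0e-07). The 3B+3L group, at 10.87 and 10.79, was the lowest, called downward with all arrays but not in each repeat. BNIP3L rose in siDNMT1, where it read 11.31 and 11.21, against 11.01 and 10.96 in siNTC-2 and 10.84 and 10.83 in siNTC-1.

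HIF1A encodes the oxygen-regulated subunit itself, whose activity depends mainly on protein stability, which arrays do not measure. It read 12.08 and 12.02 in siDNMT3B, 11.96 and 11.98 in siDNMT3L and 11.90 and 11.92 in siDNMT1, against 11.71 and 11.56 in siNTC-2 and 11.69 and 11.61 in siNTC-1. The controls did not differ for HIF1A (difference of -0.02, adjusted p = 0.807), and all 11 depletion means lay above both. HIF1A was called higher in 10 depletions, and the rises in siDNMT3B (0.41 ± 0.05 against siNTC-2 and 0.40 ± 0.05 against siNTC-1), siDNMT3L (0.33 and 0.32) and siDNMT1 (0.27 and 0.26) held in every repeat. The other 7 calls were of 0.14 to 0.23 and were each lost in a repeat. Of its prolyl hydroxylases, EGLN1 had depletion means from 7.79 to 7.98, against 7.74 and 7.83 in siNTC-2 and 7.62 and 7.60 in siNTC-1. EGLN1 passed in 10 of 11 depletions against siNTC-1 and in none against siNTC-2. EGLN3, itself a HIF target, had means from 6.58 to 7.13, against 6.69 and 6.59 in siNTC-2 and 6.72 and 7.03 in siNTC-1, and was called in none.

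P4HA1, a subunit of the prolyl hydroxylase that modifies collagen, read 8.47 and 8.41 in 3B+3L, 8.44 and 8.40 in 3A+3L and 8.35 and 8.34 in siD1+3A, against 8.01 and 8.03 in siNTC-2 and 7.61 and 7.71 in siNTC-1. All 11 depletion means lay above both controls. In 3B+3L the rise was 0.42 ± 0.07 against siNTC-2 (adjusted p = 0.00055, limma) and 0.78 ± 0.07 against siNTC-1 (adjusted p = 2.5e-08). It was called in 8 depletions, and the 3 named rises held in every repeat. ANKRD37, an ankyrin repeat protein, was called in siDNMT3L only with all arrays. NDRG1, a stress-responsive gene, had group means that spanned 0.24 and was called in none.

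**Figure D4:**
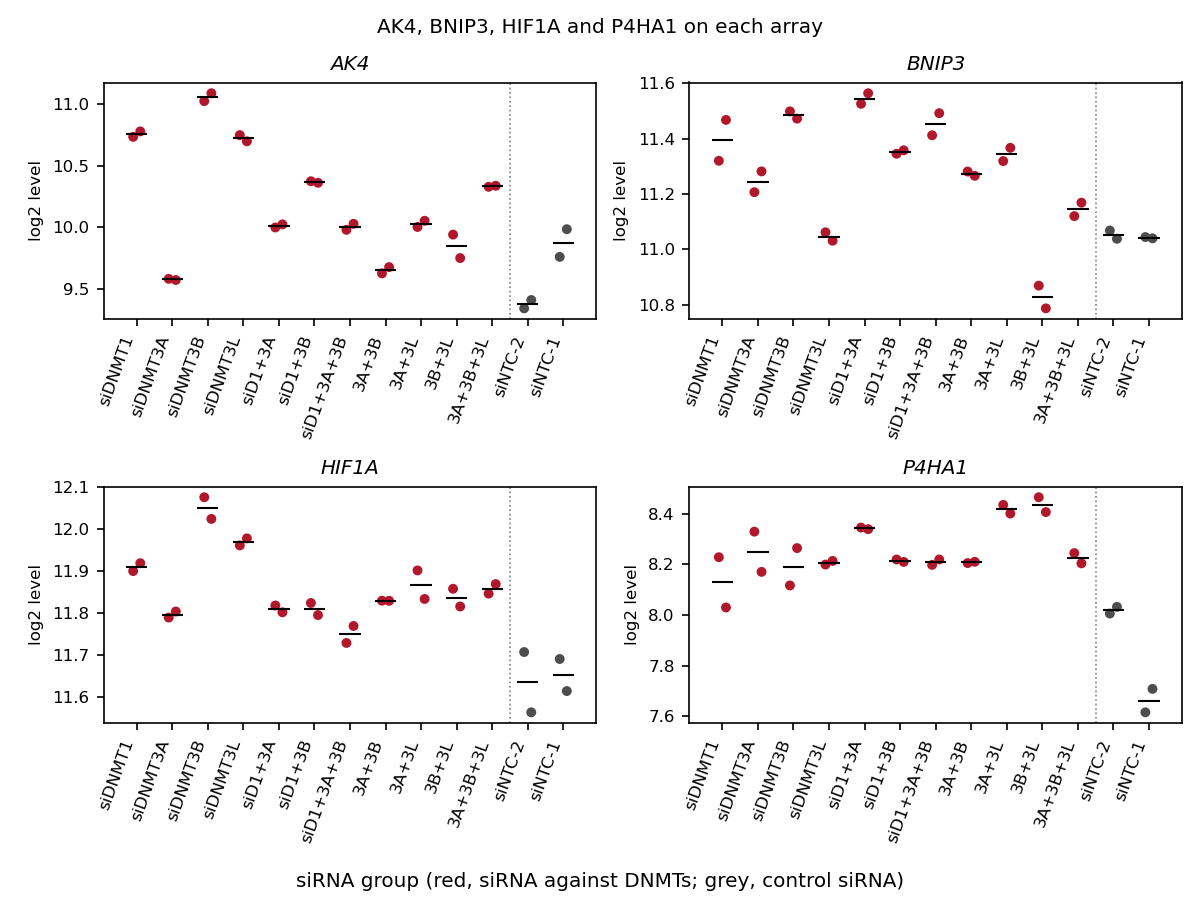
Log2 levels of AK4, BNIP3, HIF1A and P4HA1 on each of 26 arrays (points) with group means (lines); 11 depletions in red, siNTC-2 and siNTC-1 in grey at the right. AK4 is highest in siDNMT3B at 11.03 and 11.09, and all depletion means of HIF1A and P4HA1 lie above both control means.

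The control groups differed in 19 members, with 10 higher and 9 lower in siNTC-2 than in siNTC-1, and 12 of these held in every repeat. The shares of all genes were the 24.2% and 20.5% given above, and the members' shares were 29.4% and 26.5%. Among the genes in the upper 60% of mean signal the shares were 36.2% and 25.1%, so the members did not stand out from those genes. VEGFA, the vascular growth factor, read 9.33 and 9.29 in siNTC-2 and 7.58 and 7.40 in siNTC-1, a difference of 1.82 ± 0.08 (3.52-fold, adjusted p = 1.2e-11, limma). ADM, the vessel-dilating peptide adrenomedullin, differed by 0.93 ± 0.08 and ENO2 by 0.61 ± 0.05. In the other direction, SLC2A1 differed by -1.17 ± 0.06 (adjusted p = 9.8e-11), PFKP by -0.64, LDHB by -0.58, HK2 by -0.51, AK4 by -0.50 and LDHA by -0.41. VEGFA and ADM, both known HIF targets, were thus higher in siNTC-2, while SLC2A1 and LDHA, which are known HIF targets too, were lower.

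VEGFA in the depletions covered nearly the whole gap between the controls. It read 7.44 and 7.68 in siDNMT1, 7.84 and 7.76 in siDNMT3B and 9.30 and 9.27 in 3B+3L. Against siNTC-1 it was higher in 9 of 11 depletions past the threshold and against siNTC-2 lower in 10 of 11, and it was called against both controls in none. ADM was called lower in siDNMT3L, 3A+3L and 3A+3B+3L with all arrays, each lost in a repeat. Genes of other responses also differed between the controls. TXNIP, a glucose-induced inhibitor of glucose uptake, differed by 3.77 between siNTC-2 and siNTC-1, and its relative ARRDC4 by 2.40. All 12 genes of an ATF4 list (the amino acid and unfolded protein stress response) were higher in siNTC-2, where 24.2% of all genes were. The list was chosen with earlier results of these data known, so its counts here and below are not independent of those results. The mean level of the 12 genes was 7.87 to 8.35 on the 8 arrays of siDNMT1, siDNMT3B, siDNMT3L and siNTC-1. It did not overlap with the 8.59 to 10.36 on the 18 other arrays. The mean of TXNIP and ARRDC4 was 7.31 to 8.87 on those 8 arrays and 8.72 to 10.83 on the 18. These 8 and 18 arrays are the sides of the first principal component. That split comes from all genes, these lists included, so the separation is not independent of it. The part of the ATF4 genes, TXNIP and ARRDC4 in the results was not tested.

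**Figure D5:**
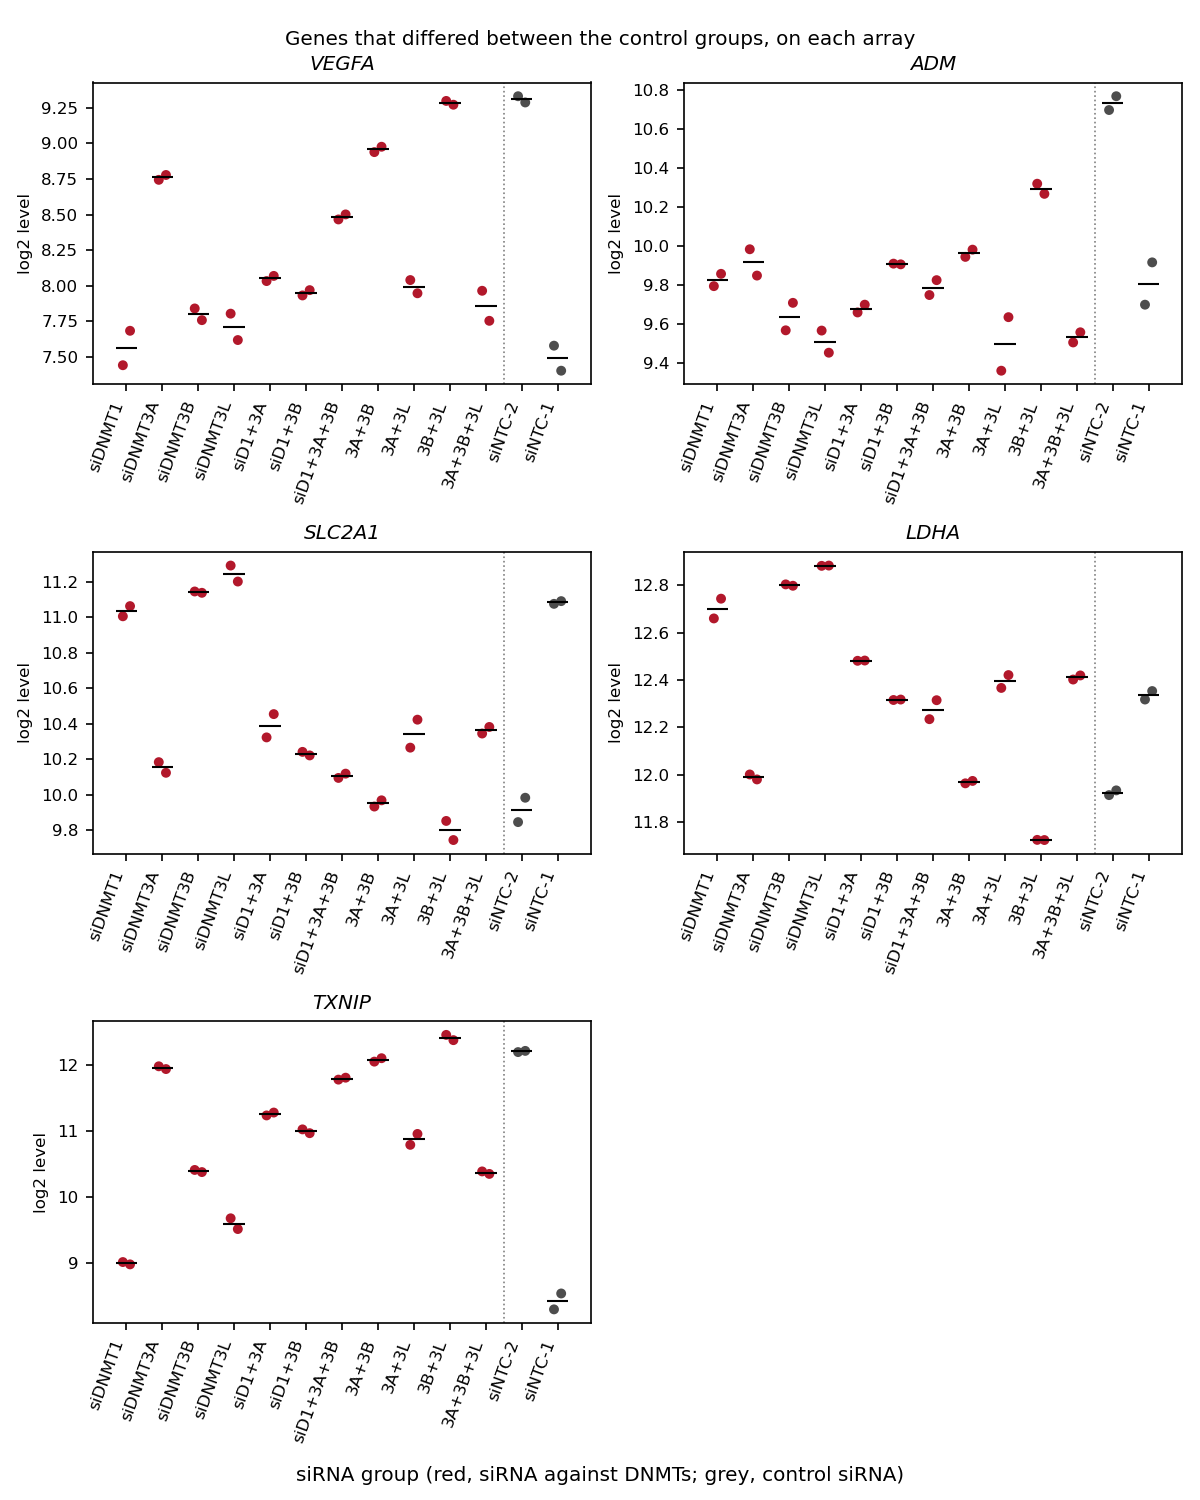
Log2 levels of VEGFA, ADM, SLC2A1, LDHA and TXNIP on each of 26 arrays (points) with group means (lines); 11 depletions in red, siNTC-2 and siNTC-1 in grey at the right. VEGFA and TXNIP are high and SLC2A1 is low in siNTC-2 compared with siNTC-1, and siDNMT1, siDNMT3B and siDNMT3L lie near siNTC-1 for SLC2A1 and VEGFA.

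Comparisons among depletions use no control arrays. The effect of adding an siRNA was averaged over pairs of combinations that differ in it, 3 pairs for DNMT3B and 2 pairs for each of DNMT3L, DNMT1 and DNMT3A, all among the groups on the siNTC-2 side. These averages share arrays with each other. Transcripts of the targets other than the added one moved as well. DNMT3B rose on adding DNMT3L siRNA, and DNMT1 and DNMT3B rose on adding DNMT3A siRNA. On adding DNMT1 siRNA, DNMT3B was called higher with all arrays but not in each repeat. Adding DNMT3L siRNA gave 8 members higher and 5 lower, where 7.18% and 10.5% of all genes were called. Of these, SLC2A1 (0.30), LDHA (0.42) and AK4 (0.57, adjusted p = 1.7e-07, limma) rose and VEGFA (-0.93, adjusted p = 3.8e-09), ADM (-0.43), BNIP3L (-0.25) and ENO2 (-0.24) fell in every repeat. The other 6 were lost in at least 1 repeat, and without 3A+3B+3L replicate 2 the count was 7. AK4 did not pass in its second row (0.20, adjusted p = 0.206, limma). VEGFA read 8.04 and 7.95 in 3A+3L against 8.74 and 8.78 in siDNMT3A, and 7.96 and 7.75 in 3A+3B+3L against 8.94 and 8.98 in 3A+3B. The pairs did not overlap.

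Adding DNMT1 siRNA gave 6 members higher and 5 lower, where 5.55% and 8.01% of all genes were called. The shares among the genes of higher signal were 7.95% and 12.3%. In every repeat SLC2A1 (0.20), LDHA (0.40), AK4 (0.39) and BNIP3 (0.24) rose, and VEGFA (-0.59, adjusted p = 2.9e-06, limma), BSG (-0.45, adjusted p = 2.2e-06), PFKM (-0.17) and ENO2 (-0.15) fell. The second row of AK4 did not pass here (0.25, adjusted p = 0.122, limma). BSG read 11.28 and 11.26 in siD1+3A against 11.84 and 11.81 in siDNMT3A, and 11.29 and 11.37 in siD1+3A+3B against 11.63 and 11.73 in 3A+3B, again without overlap. All 12 genes of the ATF4 list, TXNIP and ARRDC4 were lower at the threshold with all arrays in both backgrounds of DNMT3L siRNA (where 6.04% of all genes were lower in 3A+3L than in siDNMT3A, and 5.49% in 3A+3B+3L than in 3A+3B). The same held in both backgrounds of DNMT1 siRNA (where 5.29% were lower in siD1+3A than in siDNMT3A, and 2.17% in siD1+3A+3B than in 3A+3B). TXNIP changed by -1.39 on average with DNMT3L siRNA and by -0.49 with DNMT1 siRNA. Their part in the changes of the members was not tested.

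On average over its backgrounds, adding DNMT3A siRNA gave 6 members higher and 2 lower, where 3.49% and 6.62% of all genes were called. The shares among the genes of higher signal were 5.48% and 10.0%, and the count of members was 5 without siD1+3B replicate 2. The averages of SLC2A1 (0.22), LDHA (0.32), BNIP3 (0.21), VEGFA (-0.45) and ADM (-0.44) passed in every repeat, but the backgrounds did not move alike. VEGFA read 7.96 and 7.75 in 3A+3B+3L against 9.30 and 9.27 in 3B+3L, a difference of -1.43 (adjusted p = 1.3e-09, limma). It read 8.47 and 8.50 in siD1+3A+3B against 7.93 and 7.97 in siD1+3B, a difference of 0.53 in the other direction (adjusted p = 0.00169). SLC2A1 differed by 0.57 in the first background and -0.12 in the second (adjusted p = 0.371), LDHA by 0.69 and -0.04 (adjusted p = 0.737), and AK4 by 0.49 and -0.36 (adjusted p = 0.006). The second row of AK4 gave -0.17 and -0.25 in that order, and neither passed. BNIP3 (0.32 and 0.10) and ADM (-0.76 and -0.12) had the same sign in both backgrounds, and passed in the first alone. The test of the difference between backgrounds was not run. With all arrays, all 12 genes of the ATF4 list were lower in 3A+3B+3L than in 3B+3L, where 11.3% of all genes were, and 11 of the 12 were higher in siD1+3A+3B than in siD1+3B, where 1.34% of all genes were. TXNIP differed by -2.04 and 0.79 in the same order, and the part of these genes in the changes of the members was not tested.

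Adding DNMT3B siRNA called 0 of the 34 members by limma, where 0.201% of all genes were called higher and 0.554% lower. The shares among the genes of higher signal were 0.308% and 0.887%. At an unadjusted p under 0.05 there were 12 members, with 2 higher and 10 lower. Other fits called 2 with quantile normalization, 2 without dim genes and 5 with a trended robust prior. DNMT3B itself was lower on average (-0.42, adjusted p = 8.0e-06). The upward averages with the smallest unadjusted p, VEGFA (0.16 ± 0.05, adjusted p = 0.137) and AK4 (0.12 ± 0.04, adjusted p = 0.165), also joined unlike backgrounds. VEGFA differed by 0.20 in 3A+3B against siDNMT3A, by 0.43 in siD1+3A+3B against siD1+3A (adjusted p = 0.0217) and by -0.13 in 3A+3B+3L against 3A+3L. AK4 differed by 0.07, -0.01 and 0.31 in that order, and none of these passed.

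Among the single depletions on the side of siNTC-1, siDNMT3B had 7 members higher and 2 lower than siDNMT1, where 9.79% and 8.49% of all genes were called. The shares among the genes of higher signal were 13.8% and 11.3%. SLC2A3, PFKFB3 (0.38), ENO2 (0.31), BSG (1.32, adjusted p = 1.6e-10, limma) and AK4 (0.30) were higher in every repeat, and without siDNMT3B replicate 2 the count was 5. Compared with siDNMT3L, siDNMT3B had 3 members higher and 0 lower, with 2 lower at an unadjusted p under 0.05. Of all genes 5.88% and 4.95% were called, and of the genes of higher signal 9.04% and 7.41%. The 3 higher members were AK4 (0.33, adjusted p = 0.00303, limma), BNIP3 (0.44, adjusted p = 3.2e-05) and BNIP3L (0.31, adjusted p = 0.000531). The second row of AK4 passed in neither comparison. It gave 0.19 from siDNMT1 (adjusted p = 0.409, limma) and 0.41 from siDNMT3L (adjusted p = 0.0791).

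Further genes of the same pathways were examined as lists. Of 22 other genes of glycolysis and pyruvate handling, siDNMT3B had 3 called higher and 2 lower, where 5.69% and 6.39% of all genes were. MPC1, a subunit of the mitochondrial pyruvate carrier, read 9.28 and 9.28 in siDNMT3B, against 8.65 and 8.60 in siNTC-2 and 8.42 and 8.57 in siNTC-1. FBP1, a gluconeogenic phosphatase, read 7.27 and 7.43 in siDNMT3B, against 6.22 and 6.27 in siNTC-2 and 6.34 and 6.30 in siNTC-1, a rise of 1.10 and 1.03 in that order. No control array overlapped siDNMT3B for either gene. PFKFB2, a relative of PFKFB3, fell by 1.51 against siNTC-2 and by 0.65 against siNTC-1, and PDK2, a relative of PDK1, by 1.00 and 0.56. PGM1, which links glycogen to glycolysis, was called higher in all 11 depletions, by 0.25 to 0.40 against siNTC-2 and 0.14 to 0.28 against siNTC-1, with calls that held in every repeat in 6 of them (siDNMT1, siDNMT3L, siD1+3B, siD1+3A+3B, 3A+3B and 3A+3B+3L). In the other 10 depletions the list had 1 to 3 members called higher and 0 to 2 lower, where 2.95% to 5.1% and 2.04% to 5.45% of all genes were. Its median difference lay between -0.03 and 0.13 from siNTC-2 and between -0.10 and 0.06 from siNTC-1.

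Of 9 genes of the HIF machinery, 0 to 2 were called higher and 0 to 2 lower in a depletion. The shares of all genes were 2.95% to 5.69% and 2.04% to 6.39%. CITED2, which competes with HIF1A for a coactivator, fell in siDNMT1, siDNMT3B and siDNMT3L in every repeat. It read 8.55 and 8.64, 8.54 and 8.61, and 8.72 and 8.58 in those groups, against 9.65 and 9.75 in siNTC-2 and 9.16 and 9.07 in siNTC-1. EPAS1, the relative of HIF1A known as HIF-2, rose in siDNMT1 and siD1+3B, and read 5.71 and 5.65 in siDNMT1, against 5.18 and 5.31 in siNTC-2 and 5.42 and 5.15 in siNTC-1. These readings lie below the lowest array median of 6.28. In siDNMT3B, EPAS1 and EP300 were called higher and ARNT lower, each lost in a repeat. The same held in siDNMT1 for ARNT2, called higher, and HIF3A, called lower. Of 24 other HIF targets, 0 to 4 were called higher and 0 to 2 lower in a depletion (limma, both controls), where 2.95% to 5.69% and 2.04% to 6.39% of all genes were. CXCR4, a chemokine receptor, rose in siD1+3A, siD1+3B, siD1+3A+3B, 3A+3L and 3A+3B+3L, by 0.64 to 0.85 against siNTC-2, and STC2, a secreted glycoprotein, fell in siDNMT1 by 2.20 against siNTC-2 and by 0.65 against siNTC-1. In the same group, 10 of the 12 ATF4 genes were called lower against both controls, where 5.26% of all genes were, and 8 of these calls held in every repeat; their part in the fall of STC2 was not tested.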

How the data were processed

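Total RNA of 26 samples of transfected NCCIT cells, extracted with Trizol per the labels' protocols, was read on Affymetrix Human Gene 1.0 ST arrays. The authors deposited 1 table of 33297 probe set values; per the submitters' processing notes Partek was used, and the log2 scale of the deposited values was inferred from their range (3.04 to 14.87). Probe sets were named through the platform annotation: 19460 had 1 symbol, 1754 several and 12083 none. The brightest row of each symbol was kept, giving 18417 genes. One model with 13 group means was fitted to the 26 arrays with limma 3.58.1 in R 4.3.3 (two-sided, Benjamini-Hochberg adjustment over all genes in each contrast, threshold 0.05), and the code was tested on simulated data. A depletion call needed both control groups. The precision is limited by 2 arrays a group. All members were named; values per array were given for members called with a difference of at least 1.5-fold and for members that describe a family, and for other lists at most 4 genes of lowest adjusted p in a comparison, besides the 4 targets. PGM1, CXCR4, EPAS1, STC2 and the members with smaller differences whose arrays are given were chosen after their values were seen. The members and gene lists were chosen with earlier results of these data known. Replicate numbers did not pair arrays: over 78 group pairs the correlation of deviations was -0.2577 to 0.1914. Alternatives were each array left out, quantile normalization, no dim genes, a trended robust prior, only the groups compared, the mean of both controls and a replicate block.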

Additional observations from a re-analysis of the deposited data

Results flagged for a closer look

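AK4 differed between contexts of DNMT3B depletion: its log2 level was 1.19 above siNTC-1 when DNMT3B was depleted alone and 0.12 higher when DNMT3B siRNA was added to other siRNAs, a difference of 1.06 (adjusted p = 5.04e-08, limma). The 0.12 averages 0.07, -0.01 and 0.31 over 3 backgrounds, and with siNTC-2 as the control the difference was 1.56. The DNMT3B transcript was called lower against both controls in every repeat in siDNMT3B and in 3A+3B. Its call in siD1+3A+3B was lost in a repeat, and it was not called in 3A+3B+3L. The part of unequal depletion in the difference of AK4 was not tested. BSG differed between contexts of DNMT1 depletion: its log2 difference from siNTC-1 was -1.40 when DNMT1 was depleted alone, and it was -0.45 on adding DNMT1 siRNA to other siRNAs, a difference of -0.95 (adjusted p = 4.88e-07, limma). The -0.45 averages -0.56 and -0.35 over 2 backgrounds, and with siNTC-2 as the control the difference was -1.31. The differences of 1.06 and -0.95 use siNTC-1 as the control of the single depletion. With both controls, such a difference passed for 10 of the 34 members and 8.57% of all genes with DNMT3B siRNA (limma). With DNMT1 siRNA it passed for 8 members and 5.12% of all genes. Both single depletions lie on the siNTC-1 side of the first principal component and all groups of the additions on the siNTC-2 side. Context and that split cannot be told apart.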

How the results depend on the processing

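Against the mean of both controls in place of each control, the members called numbered 19 in siDNMT1, 19 in siDNMT3A, 23 in siDNMT3B, 22 in siDNMT3L, 18 in siD1+3A, 18 in siD1+3B, 20 in siD1+3A+3B, 21 in 3A+3B, 20 in 3A+3L, 21 in 3B+3L and 17 in 3A+3B+3L, since 1 test replaces 2. With only the groups compared in the fit, which leaves fewer arrays for the spread, they numbered 7, 1, 6, 2, 6, 4, 2, 1, 3, 1 and 5 in the same order, 11 between siNTC-2 and siNTC-1, 2 between siDNMT3B and siDNMT1 and 0 between siDNMT3B and siDNMT3L. The count in siD1+3A+3B was 9 with quantile normalization, 7 without dim genes and 9 with a trended robust prior; that on adding DNMT3B siRNA was 2, 2 and 5; that between siDNMT3B and siDNMT3L was 5 with the trended robust prior. The cause was not tested. With 1 array left out, counts ranged from 9 to 11 in siDNMT1, 2 to 6 in siDNMT3A, 8 to 11 in siDNMT3B, 5 to 7 in siDNMT3L, 3 to 9 in siD1+3A, 6 to 8 in siD1+3B, 2 to 5 in siD1+3A+3B, 2 to 5 in 3A+3B, 4 to 9 in 3A+3L, 3 to 6 in 3B+3L, 4 to 8 in 3A+3B+3L, 14 to 17 between the controls, 0 to 1 on adding DNMT3B, 7 to 13 on adding DNMT3L, 8 to 10 on adding DNMT1, 5 to 8 on adding DNMT3A, 5 to 8 between siDNMT3B and siDNMT1 and 3 to 4 between siDNMT3B and siDNMT3L. Arrays whose removal moved a count by over 1.5 times were siNTC-2 replicate 1 and both siD1+3A arrays for siD1+3A; siNTC-2 replicate 2 and both own arrays for siD1+3A+3B; both siNTC-2 and both own arrays for siDNMT3A; siNTC-1 replicate 2, both siNTC-2 and both own arrays for 3A+3B; siNTC-2 replicate 2 and both own arrays for 3A+3L; siNTC-2 replicate 2 for 3B+3L; siNTC-1 replicate 2, siNTC-2 replicate 2 and both own arrays for 3A+3B+3L; 3A+3L replicate 1 for adding DNMT3B; replicate 2 of 3A+3L and of 3A+3B+3L for adding DNMT3L; replicate 2 of siD1+3B, siD1+3A+3B and 3B+3L and both 3A+3B+3L arrays for adding DNMT3A; and siDNMT3B replicate 2 for siDNMT3B against siDNMT1. With the replicate number as a block, all 18 counts stayed within 1.5 times (11 in siDNMT1, 10 in siDNMT3B, 4 in siDNMT3A and 20 between the controls), and of 78 group pairs 9 had a correlation of same-numbered deviations over 0.1. Of 1004 recomputed values of the 78 member differences of at least 1.5-fold, 999 kept direction and call, 5 lost the call (all in the second AK4 row) and 0 reversed. With 2 arrays a group, small differences of single members are not settled.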
